A study of Saccharomyces cerevisiae with 9 samples.

Results

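The genes described here are 79 yeast genes whose RNA was counted to a large extent in unspliced form in wild-type (WT) cells. They were chosen by measured values: of 296 loci for which the transcript table holds both a spliced and an unspliced entry, those were kept in which the unspliced entry took at least 20% of the expected counts of the locus, and both entries together at least 50, as means over the 3 WT libraries. A further 204 loci passed the limit on counts but not the limit on the share, 13 did not pass the limit on counts, and 47 unspliced entries had no spliced partner. The transcript table has 6952 entries in all. The members just inside the limit were *SUS1* (21.1%), a subunit of transcription and mRNA export complexes, and *SPT14* (21.8%), an enzyme of GPI anchor synthesis, and the loci just outside were *GPI15* (19.9%), which acts in the same enzyme as *SPT14*, and *ECM9* (19.1%).

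The RNA-Seq libraries came from 3 haploid strains of the W303 background grown in YEPD at 30 °C, with 3 libraries of each strain and 9 in all. The *pbp1Δ* strain carries *URA3* in place of *PBP1*, and the *pab1Δpbp1Δ* strain carries in addition kanMX in place of *PAB1*, the gene of the cytoplasmic poly(A)-binding protein. Loss of Pbp1 lets cells live without Pab1, so *pbp1Δ* served as the *PAB1* control, and both mutant strains lack Pbp1. By the paper, *pab1Δpbp1Δ* cells took longer to double under these conditions than cells of the other strains. Loss of Pab1 and slower growth thus cannot be told apart in the comparisons below. The replicates of a mutant strain were separate isolates, whereas those of WT were technical, so that the WT spread is technical spread alone. The libraries held between 73062345 and 100361368 expected counts. The deleted genes were low where they should be: *PAB1* had 50.04, 26 and 22.01 expected counts in *pab1Δpbp1Δ* against 108388 to 142056 in *pbp1Δ*, and *PBP1* had 66 to 143 in the 6 mutant libraries against 22789 to 26638 in WT.

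An intron is removed by the spliceosome, which reads the 5′ splice site through U1 snRNA, the branch site through U2 snRNA and the AG at the 3′ end. Few yeast genes carry an intron, and ribosomal protein genes make up a large part of them. Unspliced RNA can be held in the nucleus, degraded there, or exported and degraded in the cytoplasm by nonsense-mediated decay, and in some genes splicing is itself regulated, as in meiotic genes that need the splicing activator Mer1 or in *HAC1*, whose intron is cut by the kinase and nuclease Ire1 and not by the spliceosome.

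The introns of the genes on which the results turn are shown because the sites that splicing factors read differ among them. Sequences are of the RefSeq R64 genome, on the strand of the gene, with 6 exon bases on each side in lower case. Capitals mark the opening 6 bases of the intron, the closest match to the branch heptamer TACTAAC within 200 bases of the 3′ end, and the closing 3 bases of the intron. For the introns of over 160 bases only the ends are shown. In *HAC1* (chrVI:75840-76091, plus strand, 252 bases) the capitals CCGTGA and CCG stand where the spliceosomal sites would be, and its heptamer match has no known part in its splicing.
HAC1, 5′ end: atccagCCGTGAttacgatg
HAC1, 3′ end: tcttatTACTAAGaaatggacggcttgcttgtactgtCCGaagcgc
RPS22B (chrXII:856575-857057), 5′ end: agcatgGTATGTtccaacta
RPS22B, 3′ end: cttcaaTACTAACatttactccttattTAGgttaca
RPL22B (chrVI:64600-64920), 5′ end: ccaaacGTACGTtaattttc
RPL22B, 3′ end: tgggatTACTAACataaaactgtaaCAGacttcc
RPL43A (chrXVI:654168-654570), 5′ end: aaaaatGTATGAtatattac
RPL43A, 3′ end: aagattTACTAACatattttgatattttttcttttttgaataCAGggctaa
YRA1 (chrIV:1236843-1237608), 5′ end: gtaagaGTATGTtaatacgt
YRA1, 3′ end: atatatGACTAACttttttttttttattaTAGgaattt
COI1 (chrIV:1238631-1238824), 5′ end: tataggGTATGTgtaaaaga
COI1, 3′ end: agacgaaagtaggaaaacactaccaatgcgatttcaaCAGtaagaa

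The closest heptamer match of *COI1*, AACTAAC, lies 145 bases before the end of the intron and so is not in the stretch printed. *RPL22B* and *COI1* are encoded on the minus strand and the others on the plus strand. Whole introns are printed for the short ones. These are the intron of *YKR005C* (chrXI:449952-450020, minus strand, 69 bases), a gene of unknown function, those of the meiotic genes *REC107* (chrX:469184-469263, minus strand, 80 bases) and *AMA1* (chrVII:946328-946420, plus strand, 93 bases), and the intron of *ATG44* (chrIX:47699-47760, 62 bases), which encodes a factor of mitochondrial fission and is shown as one of the genes with no spliced counts.
YKR005C: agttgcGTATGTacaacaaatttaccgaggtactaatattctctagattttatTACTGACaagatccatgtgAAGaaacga
REC107: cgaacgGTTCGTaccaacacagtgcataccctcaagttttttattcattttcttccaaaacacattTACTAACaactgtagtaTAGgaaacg
AMA1: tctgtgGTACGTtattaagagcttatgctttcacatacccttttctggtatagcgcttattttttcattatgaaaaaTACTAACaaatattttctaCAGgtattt
ATG44: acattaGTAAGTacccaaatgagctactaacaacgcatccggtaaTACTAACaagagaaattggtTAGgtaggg

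The 79 genes spanned the whole range of unspliced share above the limit (the plot of shares for all 79 genes). In WT, 28 genes had a share of 20% to 40%, 6 of 40% to 60%, 15 of 60% to 80%, 14 of 80% to 99% and 16 of 99% or more. At least 50% of the counts were unspliced for 48 genes in WT, 48 in *pbp1Δ* and 53 in *pab1Δpbp1Δ*, and at least 90% for 24, 24 and 26 genes. The median share of the 79 genes was 61.6%, 62.8% and 64.9% in the WT libraries, 64.3%, 61.4% and 64.05% in *pbp1Δ* and 62.5%, 74.4% and 63.7% in *pab1Δpbp1Δ*. In the 204 other loci it was 3.69% to 4.74% in WT, 4.03% to 4.38% in *pbp1Δ* and 4.72% to 6.59% in *pab1Δpbp1Δ*. *pab1Δpbp1Δ* replicate 2 stood apart from the other libraries in both sets. Of the 59 genes whose share in *pab1Δpbp1Δ* had an SD over 1 percentage point, 36 had their highest share in that library. The SD was over 10 points for 12 genes in *pab1Δpbp1Δ* and for 3 genes in each of the other strains, and its median was 3.54, 2.12 and 2.35 points in *pab1Δpbp1Δ*, WT and *pbp1Δ*.

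**Figure D1:**
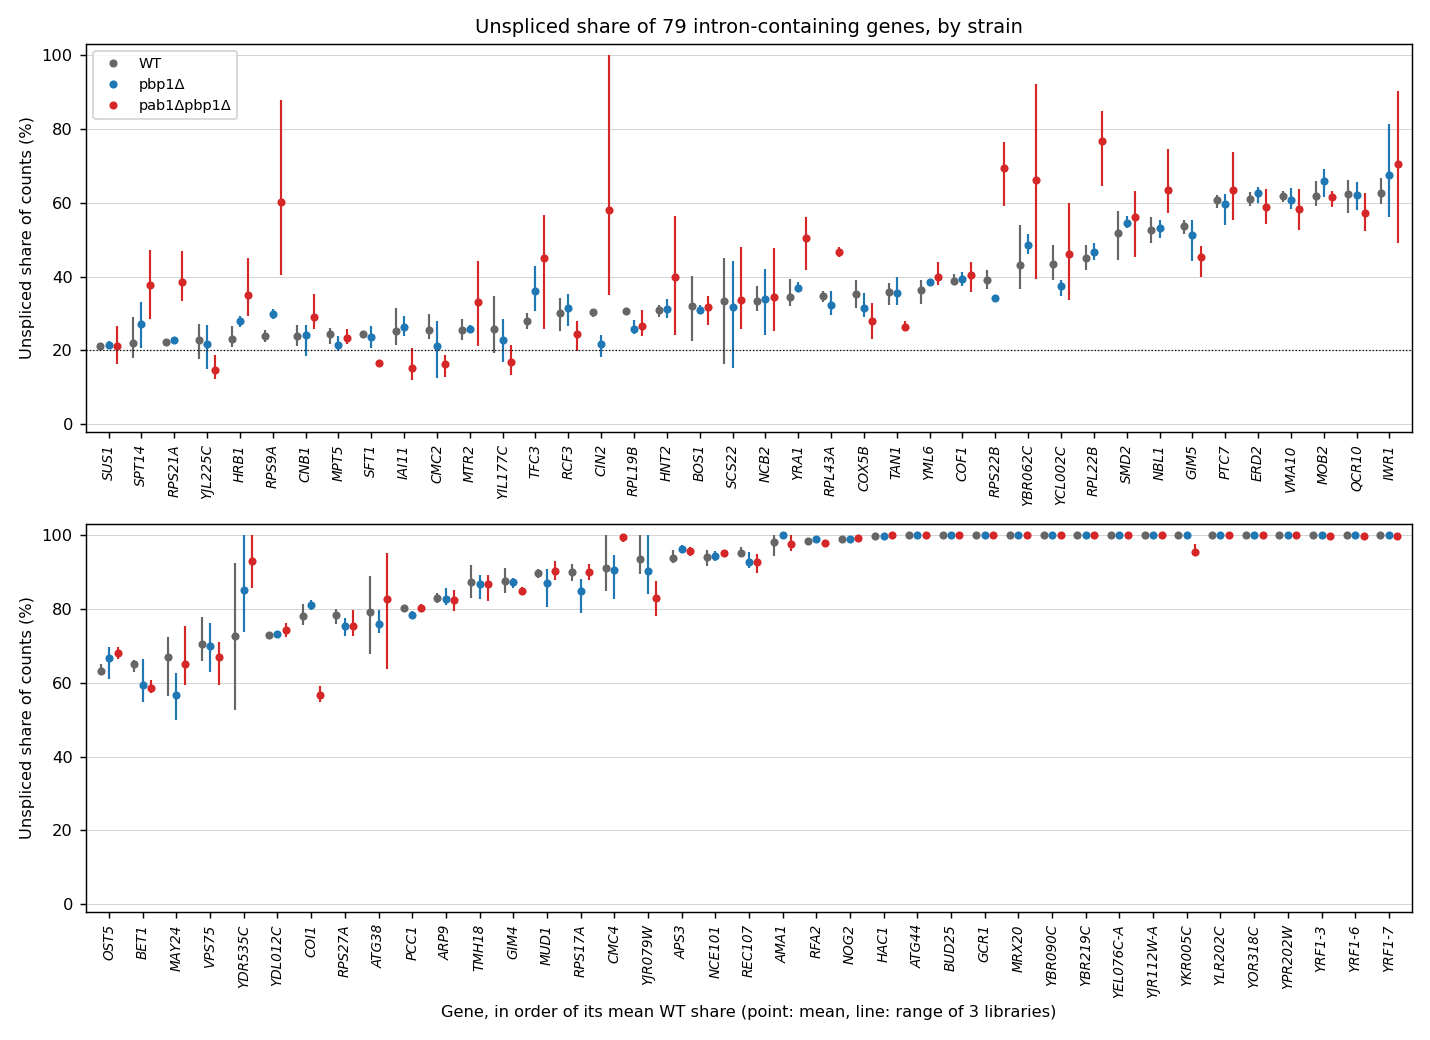
The unspliced share of expected counts (y axis, %) is plotted for each of the 79 genes in order of mean WT share, as the mean (point) and range (line) of 3 libraries of WT, *pbp1Δ* and *pab1Δpbp1Δ*; the dotted line marks the 20% limit. WT and *pbp1Δ* means lie within 5 percentage points of each other for 70 genes, and the longest lines belong to *pab1Δpbp1Δ*.

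A share of counts depends on how the quantifier divides reads between the entries. Reads in exons fit both forms, and only reads in the intron or over a splice junction tell them apart. The share of FPKM, in which counts are divided by the effective length of each entry, was lower than the share of counts for 64 genes. All 79 had at least 20% of counts by the rule, and 72 of them had at least 20% of FPKM as well. For *RPS22B* the WT share was 39.0% of counts and 14.2% of FPKM. The lengths implied by counts and FPKM allow a check of the entries. For 59 of the 62 genes with a value, the unspliced entry was longer than the spliced one by the length of the RefSeq intron, within 3 bases. Of the 79 genes, 76 have a RefSeq gene.

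Member introns were shorter at the median than those of the other loci and carried the consensus letters less often by count (the plot of intron features). Of the 76 member introns in the RefSeq annotation, 52 (68.4%) were of 160 bases or fewer, against 90 of the 190 introns (47.4%) of the other loci, and the median length was 96.5 against 234 bases. The consensus 5′ splice site GTATGT opened 43 member introns (56.6%) and 156 of the others (82.1%). The exact branch heptamer TACTAAC, searched on the strand of the gene within 200 bases of the 3′ end, was in 54 member introns (71.1%) and 166 of the others (87.4%). Both were present in 29 (38.2%) and 137 (72.1%). An AG dinucleotide closed 74 of the 76 member introns and all 190 of the others, the exceptions being *HAC1* and *YJR112W-A*, which ends in AGG as annotated. These shares describe the letters and lengths, and no test was run on them.

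**Figure D2:**
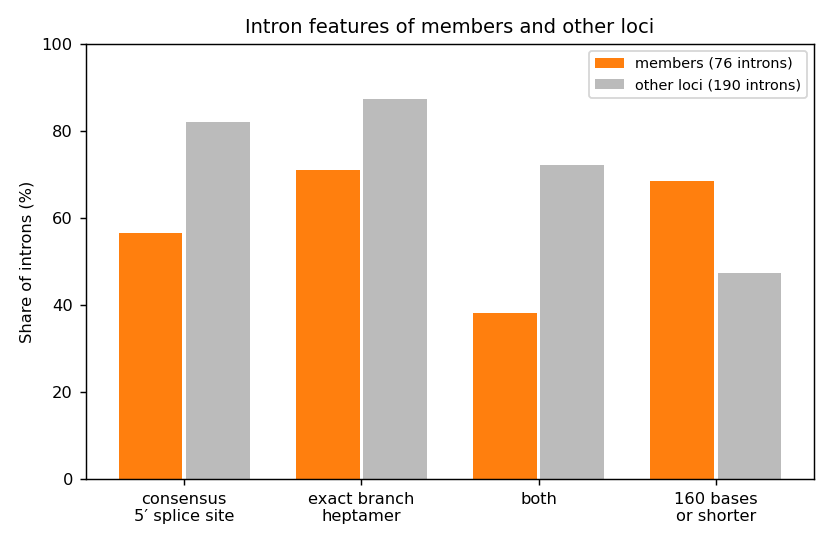
Bars give the percentage of introns (y axis) with the consensus 5′ splice site, with the exact branch heptamer, with both, and with a length of 160 bases or fewer, for 76 introns of the 79 genes and 190 introns of the 204 other loci. The largest gap is for both signals together, 38.2% against 72.1%.

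Among the 74 genes with a single annotated intron, the 28 with both consensus signals had a median WT share of 53.1% and the 46 others one of 70.5%. Only WT shares past the limit of the rule enter these medians, and the 46 others hold 3 genes with identical counts as 3 values. The 12 genes with GTACGT include *RPL22B*, *AMA1* and 3 subtelomeric helicase genes of the *YRF1* kind with identical counts. With those 3 taken as 1 measurement, the 10 values had a median WT share of 77.97%, and 4 of them were at 90% or more. The 6 genes with GTAAGT had a median of 79.99%. Levels were also set side by side. The median WT level of both entries together was 39.1 FPKM for the members and 432 FPKM for the other loci. Ribosomal protein genes were 8 of the 79 members (10.1%) and 93 of the 204 other loci (45.6%).

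Of the 16 genes at 99% or more in WT, 10 had no spliced count in any of the 9 libraries. These were *GCR1*, which encodes an activator of glycolytic genes, *ATG44*, *BUD25*, *MRX20*, *YBR090C*, *YBR219C*, *YEL076C-A*, *YJR112W-A*, *YLR202C* and *YOR318C*. Over the 3 WT libraries a spliced count of 0 allows a spliced share of up to 0.00761% for *GCR1* and up to 0.909% for *YEL076C-A*, for counting error only and for reads divided as the quantifier did. *GCR1* was the deepest of them, with 11374 to 15009 unspliced counts in WT, 15130 to 19349 in *pbp1Δ* and 17608, 43712 and 33170 in *pab1Δpbp1Δ*. With no spliced FPKM the lengths of its entries could not be compared, so how its reads were divided was not tested. *YBR090C*, *YBR219C*, *YEL076C-A* and *BUD25* overlap other annotated genes, *BUD25* the heme synthesis gene *HEM14* and *FAA2*, and how reads were divided between them was not tested. *YLR202C* and *YOR318C* have no gene in the RefSeq annotation, so neither an intron nor an overlap could be looked up for them. The helicase genes *YRF1-3*, *YRF1-6* and *YRF1-7* hold identical counts in every library and are 1 measurement.

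To ask whether loss of Pab1 changed the balance of unspliced and spliced RNA, *pab1Δpbp1Δ* was compared with *pbp1Δ* in a model of both counts of each library. WT chose the genes and took no part in the test. The ratio of unspliced to spliced RNA rose in 4 of the 64 genes that could be tested, *HAC1*, *RPS22B*, *RPL22B* and *RPL43A*, and fell in 2, *YKR005C* and *COI1*. Of these, *HAC1* met the required mean of 10 spliced counts only through *pbp1Δ* and *YKR005C* only through *pab1Δpbp1Δ*, as did *CMC4* and *YJR079W* through 1 strain each among the genes not called, so that the calls of *HAC1* and *YKR005C* give no support to the count. Over all 268 loci tested it rose in 11.9% and fell in 0.746% (edgeR's quasi-likelihood test, Benjamini-Hochberg adjusted p under 0.01 over 268 loci). The log2 change was positive in 41 members and negative in 23, with a median of 0.08 in the members and 0.38 over all loci tested. At an unadjusted p under 0.05 there were 14 of the 64 members in the same edgeR test. No share over all 268 loci was taken at that cutoff, so this count cannot be set against the other loci. The other 58 tested members did not pass the threshold, and 15 could not be tested because a mean of at least 10 spliced counts over the 6 libraries was required. Those 15 had mean shares of 100% in *pbp1Δ* and of at least 97.7% in *pab1Δpbp1Δ*.

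All 3 libraries of *pab1Δpbp1Δ* lay above all 3 of *pbp1Δ* in unspliced share for 12 of the 64 members, against 41.4% of the 268 loci, and below them for 5 members, against 6.72% of the loci. *pbp1Δ* and WT means were within 5 percentage points of each other for 70 of the 79 genes, with *pbp1Δ* above by more for 5 and below by more for 4. *pab1Δpbp1Δ* and *pbp1Δ* means were within 5 points for 50 genes, with *pab1Δpbp1Δ* above by more for 20 and below by more for 9. In 5 genes the mean share in *pab1Δpbp1Δ* was under the 20% limit. Among them were *YIL177C* (16.9%) and *YJL225C* (14.6%), which held identical counts in WT replicate 3 and in *pbp1Δ* replicate 2. How reads were divided between these genes was not tested, and they may not be separate measurements. With 3 libraries a strain, the calls depended on single libraries. Without *pab1Δpbp1Δ* replicate 2, 3 members were higher (*HAC1*, *RPS22B* and *RPL43A*) and 0 lower, where 2 had been. Without replicate 1 of that strain 8 were higher, and without its replicate 3 there were 2. Without any 1 of the *pbp1Δ* libraries, the only member called was *HAC1*, which met the required mean only through *pbp1Δ*.

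**Figure D3:**
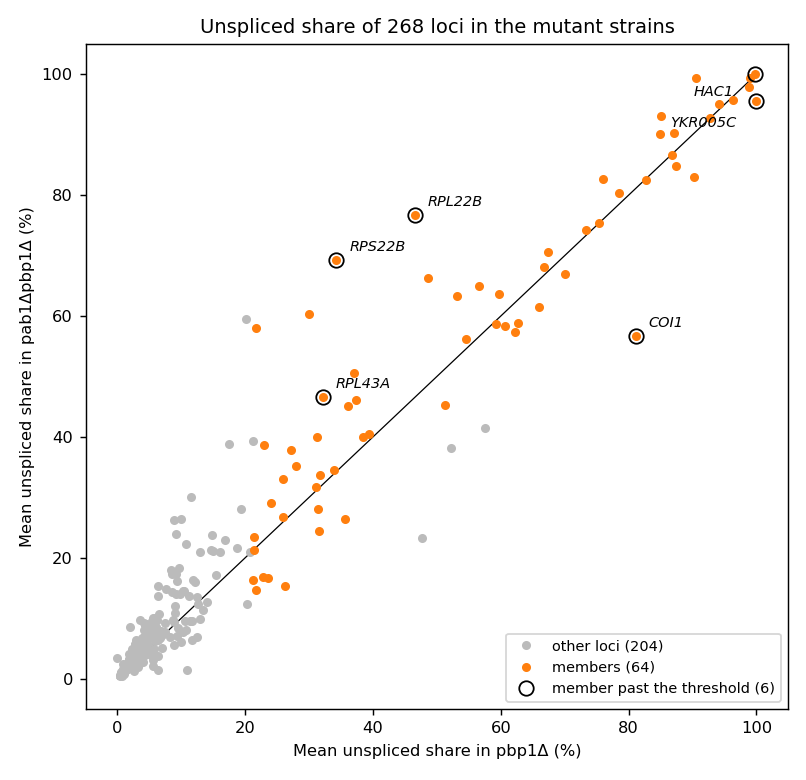
Each point is 1 of 268 loci, at its mean unspliced share of counts (%) in *pbp1Δ* (x axis) and in *pab1Δpbp1Δ* (y axis), with the 64 tested members in orange, the 204 other loci in grey, the line of equal shares, and circles around the 6 members whose ratio passed the threshold. *RPS22B*, *RPL22B* and *RPL43A* lie above the line, *COI1* lies below it, and *HAC1* and *YKR005C* sit at the upper right corner.

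*HAC1* encodes the transcription factor of the unfolded protein response, and its RNA is translated after Ire1 and tRNA ligase have joined the exons. Its spliced entry had 167, 239 and 177 expected counts in WT, 137, 108 and 95.1 in *pbp1Δ* and 4.02, 0 and 6.48 in *pab1Δpbp1Δ*. Its unspliced entry had 42017 to 63021, 37646 to 57404 and 25707 to 54671. All *pab1Δpbp1Δ* libraries thus held fewer spliced counts than any other library, while the unspliced counts of the mutant strains overlapped. The ratio of unspliced to spliced RNA was higher by 4.82 on the log2 scale in *pab1Δpbp1Δ* (SE 0.41, edgeR's quasi-likelihood test, Benjamini-Hochberg adjusted p = 0.000149). The call held whichever of the 6 libraries was removed, and was lost in the limma fit to log2 ratios of counts (adjusted p = 0.0225). It rests on few spliced counts, which reached the required mean through *pbp1Δ* alone. Since the gene entered the ratio test only through the strain with more spliced counts, these values, the p-values included, are a description.

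The 8 ribosomal protein members were *RPL19B*, *RPL22B*, *RPL43A*, *RPS9A*, *RPS17A*, *RPS21A*, *RPS22B* and *RPS27A*. Each belongs to a pair of duplicated genes. In WT their shares of counts lay between 22.1% (*RPS21A*) and 89.9% (*RPS17A*). In 7 pairs the other copy also has both entries, and that copy had 2.59% (*RPL22A*) to 12.2% (*RPS9B*) in WT. Members were chosen by WT share and these copies fell under the limit, so the rule itself sets part of this gap. In *pbp1Δ*, which took no part in the choice, the members of the 7 pairs had 22.9% (*RPS21A*) to 84.9% (*RPS17A*). Their other copies had 2.68% (*RPL22A*) to 11.8% (*RPS9B*) in *pbp1Δ*. By share of FPKM, *RPS21A* (13.2%), *RPS22B* (14.2%), *RPS9A* (14.8%) and *RPL43A* (16.9%) were under 20% in WT. *RPL19B* (21.0%), *RPL22B*, *RPS17A* and *RPS27A* were above it. In WT, *RPL22B* had a share of counts of 45.0% ± 3.40 and *RPL22A* of 2.59% ± 0.236 (SD, n = 3), and *RPS27A* 78.2% ± 2.20 and *RPS27B* 3.87% ± 0.365. The copies are close in sequence, and how the quantifier divided exon reads between them was not tested. In *pab1Δpbp1Δ* against *pbp1Δ*, the log2 change of the ratio was above 0 in all 8, 3 passed the threshold and none fell, with a median of 0.98. Of the 93 ribosomal protein loci outside the members, 22 rose, none fell and 90 had a change above 0, with a median of 0.55.

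*RPS22B*, which encodes a protein of the small subunit and hosts snR44 in its intron, had unspliced shares of 36.6%, 41.7% and 38.8% in WT, 33.6%, 34.7% and 34.6% in *pbp1Δ* and 76.4%, 72.3% and 59.2% in *pab1Δpbp1Δ*. The groups of the mutant strains did not overlap. The ratio rose by 2.14 on the log2 scale (SE 0.31, edgeR's quasi-likelihood test, Benjamini-Hochberg adjusted p = 0.00323). Both entries fell, by 4.22 spliced (SE 0.28) and by 2.15 unspliced (SE 0.10) on the log2 scale (edgeR adjusted p = 7.05e-05 and 2.59e-05). The spliced entry had 245, 223 and 235 CPM (TMM-scaled counts relative to library size) in *pbp1Δ* and 9.24, 9.76 and 18.7 in *pab1Δpbp1Δ*, and the unspliced entry had 124, 118 and 125 against 29.9, 25.4 and 27.2. The unspliced entry spans more than the RefSeq intron, since it is 1040 bases longer than the spliced one and that intron has 483, so the RefSeq sequence shown covers 1 part of what is unspliced. snR44 lies over 211 bases of the gene, and whether reads of this snoRNA were counted in the unspliced entry was not tested.

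*RPL22B*, a large-subunit gene whose product is reported to limit splicing of its own pre-mRNA, had shares of 44.5%, 48.6% and 41.9% in WT, 49.2%, 46.1% and 44.3% in *pbp1Δ* and 64.4%, 84.8% and 80.8% in *pab1Δpbp1Δ*. The ratio rose by 2.01 on the log2 scale (SE 0.41, edgeR's quasi-likelihood test, Benjamini-Hochberg adjusted p = 0.00894). The unspliced level was 63.6, 55.3 and 55.5 CPM in *pbp1Δ* and 75.7, 65.7 and 64.3 in *pab1Δpbp1Δ*, and the spliced level 65.7, 64.8 and 69.7 against 41.8, 11.8 and 15.3. The spliced values did not overlap, but neither level passed its threshold (edgeR adjusted p = 0.0159 spliced and 0.0885 unspliced). The ratio passed in 1 of the 6 fits without a library.

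*RPL43A*, a large-subunit gene, had shares of 33.0%, 35.1% and 36.0% in WT, 29.6%, 30.9% and 36.0% in *pbp1Δ* and 45.2%, 48.0% and 46.4% in *pab1Δpbp1Δ*. Its ratio rose by 0.88 on the log2 scale (SE 0.16, edgeR's quasi-likelihood test, Benjamini-Hochberg adjusted p = 0.00650), a smaller change with a smaller error, called in 2 of the 6 fits without a library. Its spliced level fell by 1.18 on the log2 scale and its unspliced level did not pass the threshold (-0.30, edgeR adjusted p = 0.0846). In *RPL43B* the share was 6.996% in *pbp1Δ* and 7.26% in *pab1Δpbp1Δ*.

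The other 5 did not pass. *RPS21A* had 22.7%, 22.6% and 23.3% in *pbp1Δ* and 35.5%, 47.0% and 33.3% in *pab1Δpbp1Δ*, with no overlap and a log2 change of 1.08 (edgeR adjusted p = 0.0243). *RPS9A* had 31.2%, 28.6% and 29.9% against 87.8%, 52.8% and 40.4%, with no overlap either but a wide spread, a log2 change of 1.97 and an SE of 0.76 (edgeR adjusted p = 0.0752). In *RPL19B*, *RPS17A* and *RPS27A*, which are among the 5 members with the largest WT counts, the mutant strains overlapped. *RPS17A* had 87.7%, 78.9% and 88.1% against 90.3%, 87.8% and 92.1%, with a log2 change of 0.65 (SE 0.29, edgeR adjusted p = 0.113), and its spliced level fell by 1.44 on the log2 scale (edgeR adjusted p = 0.00435). *RPS27A* had 77.6%, 72.6% and 75.8% against 72.6%, 79.7% and 73.9%, with a log2 change of 0.01 (SE 0.19).

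**Figure D4:**
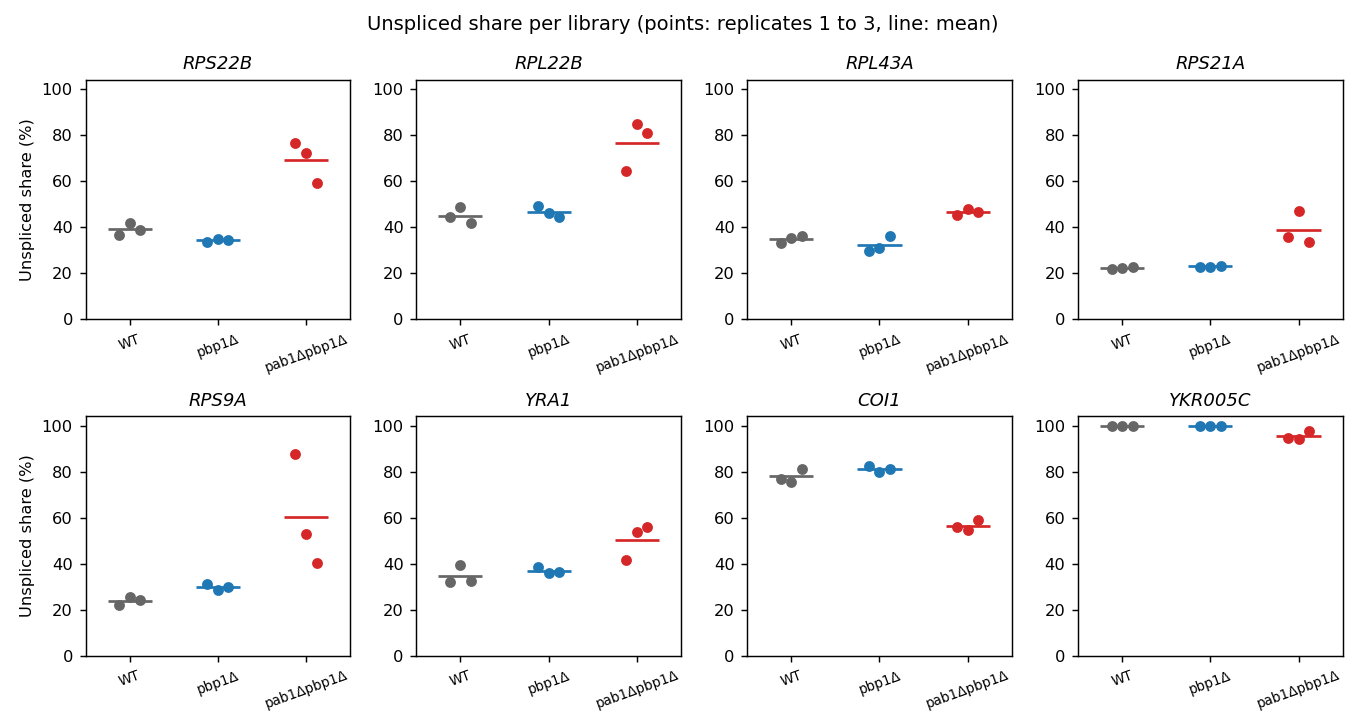
The unspliced share of counts (y axis, %) is plotted per library for 8 genes in WT, *pbp1Δ* and *pab1Δpbp1Δ*, with replicates 1 to 3 from left to right within a strain and a line at the mean. In *RPS22B*, *RPL22B*, *RPL43A*, *RPS21A*, *RPS9A* and *YRA1* all *pab1Δpbp1Δ* points lie above all *pbp1Δ* points, and in *COI1* and *YKR005C* all lie below.

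*COI1* and *YKR005C* moved the other way. *COI1*, which encodes a mitochondrial inner membrane protein, had shares of 76.9%, 75.6% and 81.4% in WT, 82.5%, 79.7% and 81.1% in *pbp1Δ* and 56.0%, 54.8% and 59.0% in *pab1Δpbp1Δ*. The ratio fell by 1.72 on the log2 scale (SE 0.37, edgeR's quasi-likelihood test, Benjamini-Hochberg adjusted p = 0.00977), close to the threshold, and in none of the 6 fits without a library did it pass, although the change stayed between -1.79 and -1.66. Its spliced level rose, from 1.47, 1.54 and 1.53 CPM in *pbp1Δ* to 9.16, 6.88 and 6.31 in *pab1Δpbp1Δ*, and its unspliced level was 6.93, 6.02 and 6.60 CPM against 11.7, 8.34 and 9.09 (edgeR adjusted p = 0.0209). *COI1* lies beside *YRA1* on the opposite strand.

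*YKR005C* had 572 to 686 unspliced and 0 spliced counts in the WT libraries, 700 to 859 and 0 in *pbp1Δ*, and 916, 1572 and 1557 unspliced with 51.2, 95.5 and 40.4 spliced counts in *pab1Δpbp1Δ*. Spliced RNA was thus counted in *pab1Δpbp1Δ* and in no other library. Over the 3 libraries pooled the spliced share was 4.42%. A count of 0 allows up to 0.132% in *pbp1Δ* (3 counts over the strain, counting error only). Since the gene entered the ratio test only through the strain with spliced counts, these values are a description.

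*YRA1*, an mRNA export factor that limits splicing of its own pre-mRNA through its large intron, is one of 5 genes listed as regulating their own pre-mRNA, of which *RPL22B* is the other member. *YRA1* had shares of 31.9%, 39.3% and 32.4% in WT, 38.6%, 36.2% and 36.3% in *pbp1Δ* and 41.7%, 53.8% and 56.1% in *pab1Δpbp1Δ*. The mutant strains did not overlap, but the ratio did not pass the threshold (log2 change 0.80, SE 0.26, edgeR adjusted p = 0.0428). Its spliced level was lower, at 93.4, 71.8 and 86.1 CPM against 145, 152 and 153 (log2 change -0.83, edgeR adjusted p = 0.000909), and the unspliced level changed by -0.01 on the log2 scale (adjusted p = 0.946, same test). *NOG2*, a GTPase of large-subunit assembly and host of snR191, was almost wholly unspliced by count, with 98.99%, 98.98% and 98.96% in *pbp1Δ* and 99.3%, 99.5% and 99.2% in *pab1Δpbp1Δ* (log2 change of the ratio 0.66, SE 0.20, edgeR adjusted p = 0.0377). snR191 lies over 274 bases of it, and whether reads of this snoRNA were counted in the unspliced entry was not tested.

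Of 13 meiotic genes listed, all with both entries, 2 were members, *REC107* and *AMA1*, and their introns need Mer1, which is made in meiosis. *REC107*, a gene of meiotic recombination, had shares of 94.2%, 96.7% and 94.5% in WT, 92.1%, 95.3% and 91.0% in *pbp1Δ* and 89.8%, 94.9% and 93.5% in *pab1Δpbp1Δ*. The strains overlapped, and the log2 change of the ratio was 0.00 with an SE of 0.68. *AMA1*, an activator of the anaphase-promoting complex in meiosis, had too few spliced counts to be tested (0, 0 and 0 in *pbp1Δ* and 21.2, 0 and 34.2 in *pab1Δpbp1Δ*). Its unspliced level rose, from 1.69, 1.77 and 2.13 CPM to 7.79, 9.27 and 7.88, a log2 change of 2.16 (SE 0.19, edgeR adjusted p = 0.000177), and the strains did not overlap.

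Other members are named here as examples, after their values were seen. The genes *BET1*, *BOS1* and *SFT1* encode SNAREs of the early secretory pathway, and had mean WT shares of 65.0%, 32.1% and 24.5%. *SFT1* had 20.6%, 26.6% and 23.6% in *pbp1Δ* and 17.1%, 16.7% and 16.1% in *pab1Δpbp1Δ*, with no overlap and an edgeR adjusted p of 0.166. *QCR10*, a subunit of complex III, had a mean WT share of 62.4%, *COX5B*, an isoform of a cytochrome oxidase subunit made at low oxygen, 35.1%, and *CMC4*, a protein of the intermembrane space, 91.0%. These 3 did not pass the ratio test, with an adjusted p of 0.0415 by edgeR for *CMC4*. *MUD1*, a protein of the U1 snRNP, had shares of 89.6% ± 1.21 in WT, 87.1% ± 5.67 in *pbp1Δ* and 90.3% ± 2.57 in *pab1Δpbp1Δ* (SD, n = 3), and *SMD2*, a protein of the Sm ring, 51.9% ± 6.76, 54.5% ± 1.78 and 56.1% ± 9.45, neither past the threshold. *PTC7*, a phosphatase gene whose spliced and unspliced RNAs are both translated, had 60.7% ± 1.87, 59.6% ± 4.81 and 63.6% ± 9.47.

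Single libraries were far from the rest in some of them. *CIN2*, a gene of tubulin folding, had 22.4%, 24.1% and 18.3% in *pbp1Δ* and 35.0%, 100% and 38.9% in *pab1Δpbp1Δ*, where replicate 2 had 935 unspliced and 0 spliced counts while the others had 1220 and 799 spliced counts. Its log2 change was 2.64 with an SE of 2.09. *YBR062C* had 46.2%, 48.2% and 51.4% against 39.4%, 92.2% and 67.2%. *TAN1*, a gene of tRNA acetylation, had 32.4%, 34.7% and 39.8% against 25.3%, 25.9% and 28.1%, with no overlap and an edgeR adjusted p of 0.102.

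Levels of the 2 forms were also compared singly (the plot of level changes). In bulk RNA, a change in how many cells carry a transcript cannot be told apart from a change per cell. Of the spliced entries of the members, 64 were tested, and 7 rose and 9 fell. Of the unspliced entries 79 were tested, and 8 rose and 9 fell. Over all 6573 entries tested in this main fit, with TMM scaling, 18% rose and 16.7% fell (edgeR's quasi-likelihood test, Benjamini-Hochberg adjusted p under 0.01). With upper-quartile scaling 18 unspliced entries of members rose and 5 fell, and 11 spliced entries rose and 6 fell. No share over all entries was taken under that scaling, so these counts have no background beside them. The median log2 change was 0.08 for spliced entries of members, 0.24 for their unspliced entries and 0.03 over all entries. The ribosomal protein members accounted for 5 of the 9 spliced and 5 of the 9 unspliced entries that fell, and none of theirs rose. Their median log2 change was -1.49 spliced and -0.76 unspliced, against 0.22 and 0.29 in the other members. *RPL19B*, the member with the largest counts, fell in both forms, by 0.77 spliced and by 0.74 unspliced on the log2 scale, and its share was 28.2%, 24.9% and 24.5% in *pbp1Δ* and 23.9%, 25.04% and 31.0% in *pab1Δpbp1Δ*. Outside the ribosomal protein genes, *CMC2* and *GIM5*, a prefoldin subunit, rose in spliced form by 0.92 and 0.84 (edgeR adjusted p = 0.00132 and 0.00216), and *ARP9*, a subunit of chromatin remodelling complexes, fell in both forms, by 0.79 spliced and by 0.81 unspliced.

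**Figure D5:**
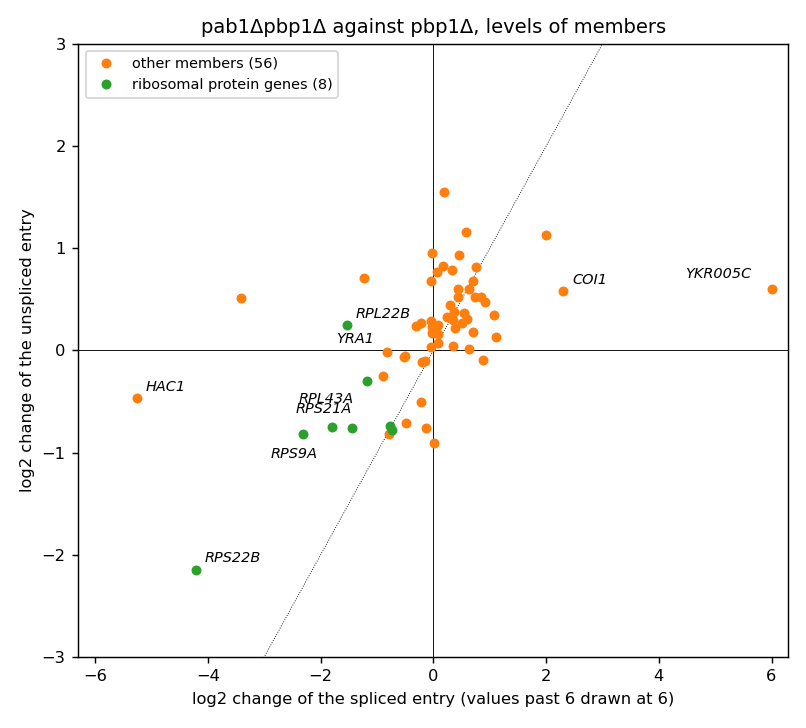
For the 64 members with both entries tested, the log2 change of the spliced level in *pab1Δpbp1Δ* against *pbp1Δ* (x axis) is plotted against that of the unspliced level (y axis), with ribosomal protein genes in green and the line of equal change dotted. The 8 ribosomal protein genes lie left of 0 in spliced level, from -4.22 to -0.74, and *YKR005C*, whose fitted spliced change depends on counts of 0, is drawn at 6.

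The factors that act on introns were described from 2 lists by the same test of levels. The mRNA entry of each gene was read, which for a gene with both entries, such as *MUD1*, is the spliced form alone. Of 76 spliceosome genes, 8 rose (10.53%) and 10 fell (13.2%), against 18% and 16.7% over all entries, with a median log2 change of -0.03. Among those that fell were *STO1*, the large subunit of the nuclear cap-binding complex (-1.40), *PRP43*, the helicase that takes spent spliceosomes apart (-1.04), and *SNU13*, a protein of the U4/U6·U5 snRNP (-0.87). The largest rise was that of *LUC7*, a protein of the U1 snRNP, from a mean of 17.1 CPM to 48.4 CPM, followed by *SPP2*, a cofactor of Prp2 (1.06), *CWC15*, of the Prp19-associated complex (0.99), and *RDS3*, of the U2 snRNP (0.91). Of 21 tested genes of nuclear pre-mRNA retention, debranching and RNA decay, 1 rose (4.76%) and 8 fell (38.1%, against 16.7% over all entries), with a median of -0.43 against 0.03 over all entries. Those that fell included *MTR4* (-1.31), *RRP6* (-0.62) and *DIS3* (-0.68), the helicase and nucleases of the nuclear exosome, *RAT1* (-0.47), the nuclear 5′ exonuclease, *RNT1* (-0.60), the yeast RNase III, and *NAM7* (-0.89), which encodes Upf1, and *PML39*, of the nuclear pore retention pathway, rose (0.60). The counts of both lists moved with the scaling and with the library left out, and fewer retention and decay genes fell with upper-quartile scaling (values in the last section). Whether these levels bear on the shares of the members was not tested.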

How the data were processed

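The RNA-Seq libraries (3 of each strain) were made by the authors with a stranded mRNA kit after rRNA blocking. Whether counting used the strand is not given in the sources used here. The deposited expected counts and FPKM values are RSEM 1.3.0 estimates by the authors from bowtie 1.0.0 alignments to a yeast transcriptome (build R64) with spliced and unspliced entries. Expected counts are not normalized, and FPKM values are scaled to effective length and depth. Tables per gene locus, which join the forms, were not used.

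Members and gene lists were chosen with earlier results of these data known. Expected counts were rounded to whole numbers, and tests were run with edgeR 4.0.16 in R 4.3.3. The ratio test fitted 2 counts per library (unspliced and spliced) with a coefficient for each library, over the 268 of 296 loci with a mean of at least 10 counts of each form in the 6 mutant libraries, and tested the interaction of form and strain. Levels were tested over all entries after TMM scaling and filterByExpr (minimum count 10). A Benjamini-Hochberg adjusted p under 0.01 counted as a change. SDs are over 3 libraries. For 3 libraries against 3, an exact permutation test cannot go below 0.1. P-values measure the spread between the isolates sampled. Library totals of 73062345 to 100361368 counts set the precision, and limits for counts of 0 cover counting error only.

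Introns came from the RefSeq annotation of R64. Both procedures were run on simulated counts with the same spread in both strains and with changes set only where counts were well above 0. That simulation cannot show how they act on the wider spread of *pab1Δpbp1Δ* or on spliced counts near 0. Named genes were members past the ratio threshold without overlap of the strains and with a mean of at least 50 counts, the 5 with the highest WT share (several tie at 100%), members of the meiotic, own pre-mRNA and snoRNA lists, those next to the limit, *HAC1*, *PAB1* and *PBP1*, and the 5 with the largest WT counts. Others, named after their values were seen, are examples. Alternatives were limma 3.58.1 on log2 ratios of counts (pseudocount 0.5) and of FPKM (0.1), DESeq2 1.42.0, other scalings and filters, a replicate block, all 9 libraries, an adjusted p under 0.05 and leaving out each library.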

Additional observations from a re-analysis of the deposited data

How the results depend on the processing

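The number of members called depended on the test. In the main analysis 32 loci had a higher ratio and 2 a lower one, among them 4 and 2 members. By limma on log2 ratios of counts, 3 loci and 0 members were higher (2 loci and 2 members were lower), and by limma on log2 ratios of FPKM 3 loci and 1 member were higher and 1 locus and 1 member lower. With no filter or at least 50 counts of each form, 1 locus and 1 member were lower. With all 9 libraries 50 loci were higher. At an adjusted p under 0.05, 88 loci and 8 members were higher. With members taken by share of FPKM, 2 were higher, *HAC1* and *RPL22B*. *HAC1* and *YKR005C* reached a mean of 10 spliced counts through 1 strain only, so their calls give no support to the counts of members in this section. *RPS22B* (14.2%) and *RPL43A* (16.9%) were not members by that measure. Leaving out 1 library gave 2 to 66 loci higher, 0 to 1 lower, 1 to 8 members higher and 0 to 1 lower, and for levels 3 to 10 and 5 to 13 members higher and lower in spliced form and 2 to 24 and 4 to 13 in unspliced form, 2 to 18 spliceosome genes higher, 3 to 19 lower, 0 to 3 retention and decay genes higher and 2 to 11 lower. With upper-quartile scaling 11 members were higher in spliced form, 18 higher and 5 lower in unspliced form, 6 spliceosome genes were lower, and 2 retention and decay genes were higher and 4 lower. By DESeq2 11 members were higher in spliced form and 18 in unspliced form, 13 spliceosome genes were higher and 17 lower, and 2 retention and decay genes were higher. At an adjusted p under 0.05, 12 members were higher and 14 lower in spliced form and 23 higher in unspliced form, 16 spliceosome genes were higher and 17 lower, and 2 retention and decay genes were higher. For levels, no share over all entries was taken under these other settings. The cause of these differences was not tested.

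Replicate numbers do not pair the mutant libraries (correlations of same-numbered libraries over levels 0.13, -0.03 and 0.12, over log2 ratios 0.17, -0.15 and -0.22). With the replicate block, 67 loci were higher and 1 lower, 7 members were higher and 1 lower, and 0 retention and decay genes were higher. Of the 177 single-gene values under other settings, 129 kept their direction and side of the threshold, 32 lost and 7 gained a call, and 9 changed sign. Without 1 library *RPL19B* ranged from -0.10 to 0.15 and *REC107* from -0.24 to 0.30. Signs changed for *RPL19B* without *pab1Δpbp1Δ* replicate 3, *RPS27A* without *pbp1Δ* replicate 2 (-0.09) or *pab1Δpbp1Δ* replicate 2 (-0.16), and *REC107* with limma on counts (-0.0032), the replicate block (-0.0043), and without *pbp1Δ* replicate 1 (-0.10) or 3 (-0.20) or *pab1Δpbp1Δ* replicate 2 (-0.24) or 3 (-0.05), all changes near 0 in the main analysis. Spliced counts limit the test, since 15 members had too few.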
